A study of Homo sapiens with 4 samples.

Results

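The genes described here encode the ROBO receptors (ROBO1, ROBO2, ROBO3 and ROBO4), the SLIT ligands (SLIT1, SLIT2 and SLIT3), netrin-1 (NTN1), its receptor DCC and draxin (DRAXIN). They were selected by symbol, 10 of the 36601 features in each count matrix, after ROBO3 and DRAXIN had been found lower in nitrergic (NO) neurons than in other neurons of these samples. That contrast is therefore given below as a description, with no test. SLIT proteins are secreted cues that repel growing axons and migrating cells through ROBO1 and ROBO2, and ROBO3 is best known from commissural axons, which use it while they cross the midline. Netrin-1 attracts axons through DCC, and draxin is a secreted protein that binds both netrin-1 and DCC. In the developing gut, netrin and DCC are known to guide neural crest-derived cells towards the mucosa and the pancreas, and ROBO4 is best known from the endothelium of blood vessels.

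Nuclei came from enteric ganglioids, in which enteric neurons and progenitors grow together as 3D clumps, made in suspension from H9 human embryonic stem cells, an established line. The 2 control and the 2 PP121 samples were all stage 1 ganglioids from this 1 line, and the PP121 samples received 2 µM PP121, a small molecule that blocks tyrosine kinases, from day 15 to day 20. The labels number the differentiations 1 and 2 within each group, and the deposited annotation dates replicate 1 of both groups to day 42 and replicate 2 to day 38, so differentiation and day cannot be told apart. The matrices held 25306 nuclei, and the 14812 with an annotated class were used. Values are given throughout in the order control replicate 1, control replicate 2, PP121 replicate 1 and PP121 replicate 2.

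The annotated nuclei numbered 4283, 3030, 4587 and 2912, with a median of 7007, 7071, 6289 and 6846 UMIs (unique molecular identifiers, which count captured RNA molecules). Enteric neurons made up 2301, 1250, 2030 and 976 of them. A column of sample names in the annotation calls control replicate 1 replicate 2, and calls control replicate 2 a stage 2 replicate 1, whereas its treatment entry is control for both. The samples were taken from the labels, and counts with each sample left out are given below. Between any 2 samples, 0 to 8 cell barcodes were shared. The 7 enteric neuron markers summed to 907, 935, 1030 and 1151 CPM (the gene's UMIs, scaled to counts per 1e6 summed UMIs of the class in a sample) in nuclei annotated as enteric neurons, against 284 to 468 CPM in progenitor 1 and 266 to 313 CPM in progenitor 2. RET, a receptor that marks the enteric lineage, was low there, at 1.64, 1.71, 1.19 and 1.48 CPM. The list of 11 hindbrain or spinal interneuron markers, of which 8, 10, 10 and 11 had a UMI in neurons, summed to 637, 394, 570 and 306 CPM in the neurons, most of it PAX2 at 528, 315, 476 and 210.3 CPM.

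In GENCODE 29 (GRCh38), ROBO3 lies on the plus strand at chr11:124865386-124881470 and ROBO4 on the minus strand at chr11:124883691-124898500. The pair is separated by 2220 bases and shares no 31-base stretch between their transcripts. DRAXIN lies on the plus strand at chr1:11691729-11725857, and DCC on the plus strand at chr18:52340172-53535903. LINC01917 (minus strand, chr18:53480835-53581091) overlaps DCC, and their transcripts share 135 stretches of 31 bases on either strand. Antisense genes overlap SLIT1, SLIT3, ROBO4 and NTN1, and since the use of strand in counting is not stated, UMIs of these genes and of their partners cannot be told apart. The 250 bases before the start of ROBO3, ROBO4 and DRAXIN are shown because ROBO3 and ROBO4 are neighbours that followed each other across neuron subtypes and because ROBO3 and DRAXIN were chosen together. Sequences are from RefSeq on GRCh38.p14, 5′ to 3′ on the strand of the gene, at chr11:124865182-124865431 for the first of 3 listed ROBO3 starts, chr11:124897866-124898115 for ROBO4 and chr1:11691460-11691709 for DRAXIN, and capitals mark CANNTG.

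ROBO3: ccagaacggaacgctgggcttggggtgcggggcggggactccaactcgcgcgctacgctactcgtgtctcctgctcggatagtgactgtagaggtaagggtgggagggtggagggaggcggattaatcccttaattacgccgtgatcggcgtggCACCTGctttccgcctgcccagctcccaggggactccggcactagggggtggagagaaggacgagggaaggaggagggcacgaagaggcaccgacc
ROBO4: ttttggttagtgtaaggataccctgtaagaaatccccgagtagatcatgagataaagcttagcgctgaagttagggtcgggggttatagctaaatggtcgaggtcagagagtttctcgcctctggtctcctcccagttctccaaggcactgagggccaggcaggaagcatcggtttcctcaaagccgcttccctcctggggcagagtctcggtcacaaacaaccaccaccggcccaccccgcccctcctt
DRAXIN: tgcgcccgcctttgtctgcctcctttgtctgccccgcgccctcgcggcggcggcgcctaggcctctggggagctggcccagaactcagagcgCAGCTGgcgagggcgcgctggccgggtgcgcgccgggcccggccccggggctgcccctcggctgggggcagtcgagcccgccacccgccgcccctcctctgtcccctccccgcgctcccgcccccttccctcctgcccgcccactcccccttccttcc

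CANNTG, the E-box letters that read the same on both strands, occurred 1 time in the ROBO3 window, 1 time in the DRAXIN window and 0 times in the ROBO4 window. Of all 35116 RefSeq promoter windows of this length, 61.8% held the motif, with a median of 1. A RefSeq window was found for 9 of the 10 genes, all but NTN1.

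Among the receptors, ROBO3 and ROBO4 were genes of the neurons, whereas ROBO1 and ROBO2 were also high in progenitor 2. ROBO3 stood at 148, 125, 139 and 134 CPM in enteric neurons, against 16.2, 11.04, 8.69 and 14.4 CPM in progenitor 1 and 21.9, 11.8, 9.96 and 14.2 CPM in progenitor 2. Every neuron sample was above every progenitor sample, and the ranges of the progenitor classes overlapped. After each nucleus was thinned to 2000 UMIs, a ROBO3 UMI was found in 14.8%, 13.2%, 15.8% and 14.1% of neurons, against 1.72%, 0.498%, 1.53% and 4.02% of progenitor 1 nuclei. Thinning left out 10, 3, 6 and 2 shallower neurons and 4, 5, 23 and 3 progenitor 1 nuclei, and without it the shares were 27.1%, 25.8%, 27.0% and 23.8% of neurons and 7.17%, 2.47%, 3.68% and 6.79% of progenitor 1 nuclei. Before thinning, the median depth was 7345, 7782, 7210.0 and 8102 UMIs in neurons and 5954, 5616, 4854 and 5044 UMIs in progenitor 1. ROBO4 was lower still, with 22.6, 20.1, 30.2 and 20.3 CPM in neurons and at most 4.70 CPM in any progenitor sample.

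DCC followed ROBO3 in its preference for neurons. Its level was 1302, 1839.8, 2201 and 3446 CPM in neurons, 185, 209, 257 and 562 CPM in progenitor 1 and 283, 337, 357 and 678 CPM in progenitor 2. The neuron range lay above both progenitor ranges, which overlapped each other. A DCC UMI was found in 63.6%, 75.9%, 79.4% and 83.2% of thinned neurons, against 13.4% to 33.9% of progenitor 1 nuclei (81.1%, 91.0%, 91.0% and 93.5% against 26.5% to 46.3% without thinning). ROBO1 ran 645, 645, 602 and 683 CPM in neurons, 406, 436, 302 and 433 CPM in progenitor 1 and 827, 1048, 900.2 and 849.9 CPM in progenitor 2, so that the order progenitor 2, neuron, progenitor 1 held without overlap. For ROBO2, the level in neurons (730.4, 614, 859 and 1222 CPM) overlapped that in progenitor 2 (1038, 863, 931 and 595 CPM), and both lay above progenitor 1 (194, 136, 206 and 186 CPM).

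The ligands were not limited to neurons. SLIT1 was 180.1, 202, 235 and 278 CPM in neurons, 45.5 to 98.5 CPM in progenitor 1 and 113 to 189 CPM in progenitor 2, the last overlapping the neurons. SLIT2 overlapped between neurons (161 to 246 CPM) and progenitor 2 (158 to 491 CPM) and was 70.2 to 165 CPM in progenitor 1. SLIT3 ranged from 13.9 to 73.1 CPM in neurons, 6.57 to 32.8 CPM in progenitor 1 and 9.62 to 45.2 CPM in progenitor 2, ranges that all overlapped. NTN1 was 29.9 to 43.8 CPM in neurons and 52.5 to 115 CPM in progenitor 2, which did not overlap, with progenitor 1 across both at 28.3 to 63.7 CPM. DRAXIN was present in all 3 classes, with 154, 202, 171 and 169.8 CPM in neurons, 175 to 285 CPM in progenitor 1 and 124 to 167 CPM in progenitor 2. All of these levels are descriptions, since the classes were made from the same nuclei.

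**Figure D1:**
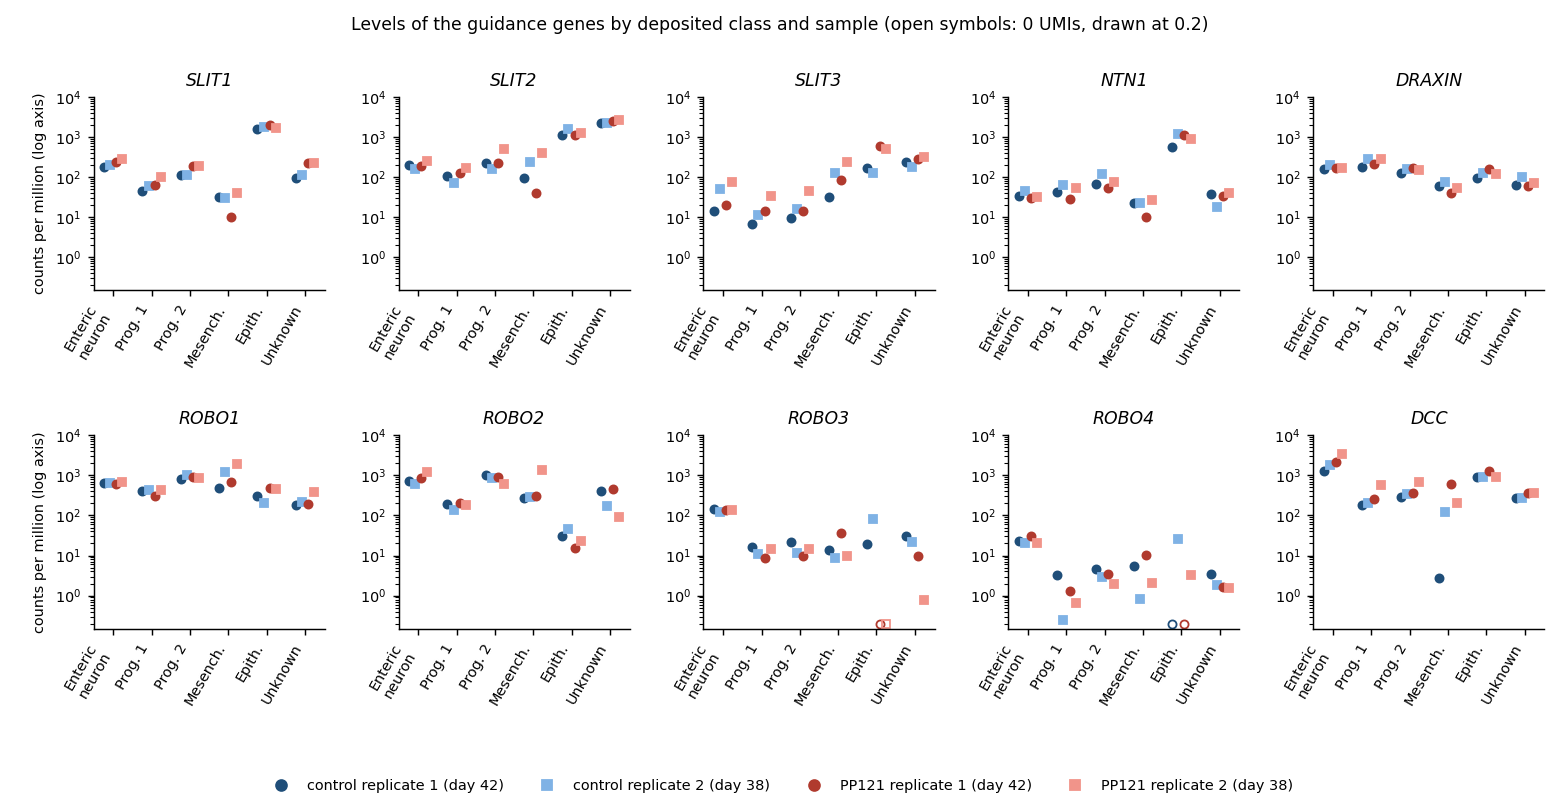
Level of each gene in CPM (log axis) in the 6 deposited classes, 1 symbol per sample, blue for control and red for PP121, circles for replicate 1 and squares for replicate 2. ROBO3, ROBO4 and DCC were higher in every neuron sample than in every progenitor sample, and SLIT1, SLIT2 and NTN1 were high in the nuclei annotated as epithelial, of which each sample held 9 to 37.

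For SLIT1, SLIT2 and NTN1, the small classes held the highest levels of the ganglioids. In the 25, 21, 9 and 37 nuclei annotated as epithelial, SLIT1 reached 1545, 1710.4, 1949.7 and 1683 CPM, NTN1 573, 1157, 1083 and 877 CPM, and SLIT2 1121, 1543, 1099 and 1238 CPM. DCC was also present there, at 932, 893, 1315 and 887 CPM, whereas ROBO2 was 15.5 to 45.7 CPM. The label of this class had thin support in the data, because its 4 epithelial markers summed to only 64.8, 76.1, 61.9 and 43.5 CPM and EPCAM rested on 1 to 3 UMIs per sample. The genes SHH and FOXA2, looked up after these levels were seen, stood at 39.9, 40.6, 61.9 and 56.9 CPM and at 4.98, 5.08, 0 and 23.4 CPM. In nuclei annotated as unknown, SLIT2 was 2262, 2206, 2448 and 2639 CPM and SLIT3 233, 175, 278 and 311 CPM, above every neuron and progenitor sample for both genes. Mesenchymal nuclei, of which 40 and 33 came from the replicate 1 samples and 408 and 422 from replicate 2, had ROBO1 at 493, 1242, 699.8 and 1915 CPM and ROBO3 at 14.01, 8.57, 37.0 and 9.50 CPM.

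ROBO3 differed far more between neuron subtypes than between samples. The annotation splits the neurons of control samples into EN 1 to EN 8 and those of PP121 samples into EN A to EN I, and these names were not matched to each other. ROBO3 was 591 and 461 CPM in EN 2 of control replicates 1 and 2 and 581 and 548 CPM in EN B of PP121 replicates 1 and 2. The next subtypes were EN 1 with 112 and 127 CPM and EN A with 96.9 and 194 CPM, and at the low end stood EN 8 with 6.73 and 2.07 CPM and EN H with 10.0 and 16.1 CPM. EN 2 held 16.4% and 13.7% of control neurons and 64.5% and 54.1% of their ROBO3 UMIs. EN B held 17.1% and 12.2% of PP121 neurons and 65.9% and 48.3% of their ROBO3 UMIs.

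ROBO4 had the same 2 leading subtypes, with 100.4 and 102 CPM in EN 2 and 141 and 95.3 CPM in EN B. No ROBO4 UMI was found in EN 8, which allows up to 4.04 and 3.11 CPM at this depth. In single neurons thinned to 2000 UMIs, ROBO4 was detected in 15.6%, 13.4%, 25.1% and 13.1% of nuclei with a ROBO3 UMI, against 1.59%, 1.75%, 1.88% and 1.55% of nuclei without one. DCC was likewise found in 77.4%, 89.0%, 89.3% and 89.8% of nuclei with ROBO3, against 61.1%, 74.0%, 77.5% and 82.1% of the rest, with overlapping exact binomial intervals in PP121 replicate 2. For DRAXIN the shares were 34.7%, 32.3%, 37.3% and 30.7% against 23.4%, 31.8%, 26.8% and 24.5%, and the intervals overlapped in both replicate 2 samples. These shares are descriptions over all subtypes together.

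ROBO2 ran the opposite way. Its highest levels were 1957 and 1695 CPM in EN 8 and 1964 and 2255 CPM in EN H, the subtypes lowest in ROBO3, and it was 365 and 245 CPM in EN 2, 262 and 417 CPM in EN B and 258 and 274 CPM in EN 1. EN 8 and EN H also had the lowest sums of the hindbrain or spinal interneuron markers, at 75.4 and 23.8 CPM and at 57.6 and 28.5 CPM. Those markers summed to 1038 and 891 CPM in EN 2 and 1129 and 738 CPM in EN B, but also to 1042 and 1198 CPM in EN 3, where ROBO3 was 28.4 and 49.4 CPM. The part of these marker genes in the ROBO3 levels was not tested.

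DCC was highest in EN F, a subtype of the PP121 samples, with 6582 and 7206 CPM, followed among subtypes with at least 50 nuclei in both replicates by EN B with 4034 and 4906 CPM, EN 2 with 2846 and 3992 CPM and EN 6 with 2989.6 and 3117 CPM. The spread between replicates of EN 2 covered both values of EN 6. EN F held 6.65% and 18.6% of PP121 neurons and 17.9% and 42.5% of their DCC UMIs. EN 6 and EN F also led in ROBO1, with 1546 and 1306 CPM and with 2177 and 974 CPM, and in NTN1, with 72.1 and 96.1 CPM and with 59.6 and 60.8 CPM. SLIT3 was highest in EN 4, at 69.7 and 165 CPM. DRAXIN lay between 87.5 CPM in EN 8 of control replicate 1 and 245 CPM in EN B of PP121 replicate 1.

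**Figure D2:**
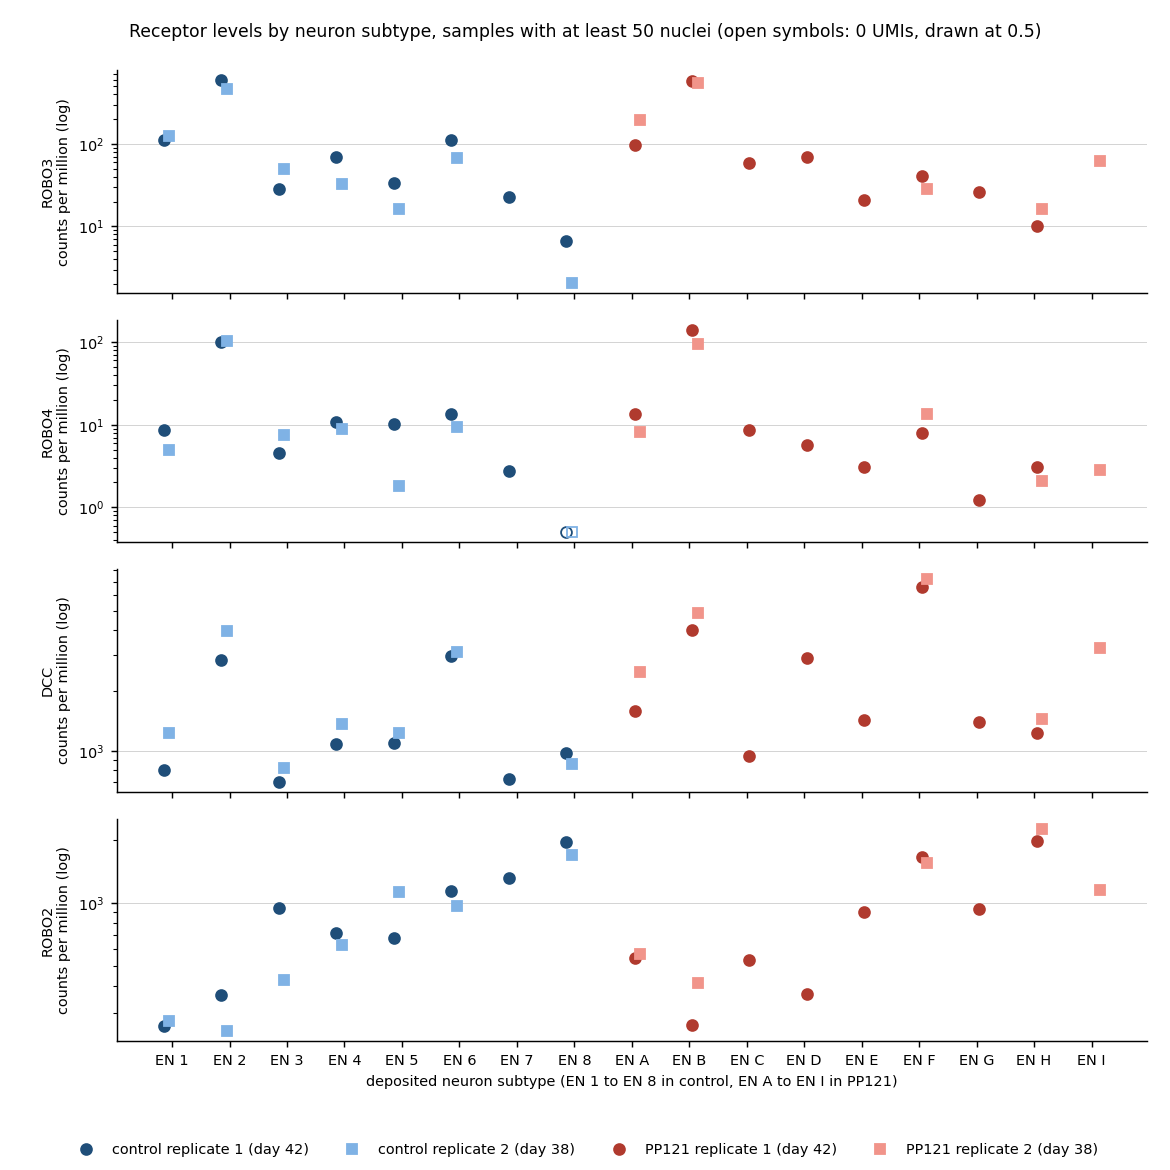
ROBO3, ROBO4, DCC and ROBO2 in CPM (log axes) in each deposited neuron subtype, 1 symbol per sample with at least 50 nuclei of the subtype, blue for control and red for PP121. ROBO3 and ROBO4 peaked in EN 2 and EN B, DCC in EN F, and ROBO2 in EN 8 and EN H, where ROBO3 was lowest.

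Across 28 profiles, each a neuron subtype in 1 sample with at least 50 nuclei, the Pearson correlation of log2(CPM + 1) between ROBO3 and ROBO4 was 0.90, between ROBO2 and ROBO3 −0.79 and between ROBO3 and DRAXIN 0.66. Profiles of a sample share its library and depth, so the values describe these subtypes only. The genes outside the set most like ROBO3 were CNTN2, which encodes the axonal adhesion molecule contactin 2 (r = 0.90), EPB41 (r = 0.84) and AP000866.1 (r = 0.83), which lies 30898 bases from ROBO3. For ROBO4 they were RBBP5 (r = 0.88), CNTN2 (r = 0.84) and RGMB, a ligand of neogenin (r = 0.84). DCC was most like LINC01917 (r = 0.98), the gene that overlaps it, then CASC15 (r = 0.91) and CASC9 (r = 0.90).

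Of the other receptors, ROBO2 was most like KLHL29 (r = 0.80), DOCK1, which acts downstream of DCC (r = 0.79), and MAGI1-AS1 (r = 0.75), and ROBO1 most like SOX2-OT (r = 0.79), SVIL (r = 0.78) and E2F3 (r = 0.78). Among the ligands, SLIT1 was most like NCAM1 (r = 0.84), CACNA1B (r = 0.83) and STMN2 (r = 0.83), and SLIT2 most like NRG3 (r = 0.81), DPP6 (r = 0.77) and MDGA2 (r = 0.76). SLIT3 came closest to AC006145.1 (r = 0.80), CACNA2D1 (r = 0.77) and MECOM (r = 0.77). NTN1 was nearest to GLDC (r = 0.84), FAT4 (r = 0.82) and TLK1 (r = 0.81), and DRAXIN to ZMYM2 (r = 0.85), FLNA (r = 0.84) and PLEKHB2 (r = 0.83).

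In NO neurons, called by the authors from imputed NOS1 and a score of NO genes, ROBO3 was lower than in the other neurons of each sample. It was 37.1, 29.4, 52.1 and 60.4 CPM in the 449, 230, 358 and 91 NO neurons, against 174, 147, 169.9 and 147 CPM in the 1836, 1004, 1529 and 824 others. DRAXIN was 113, 144, 112 and 91.7 CPM in NO neurons against 163, 213, 187 and 178 CPM. Neither pair of ranges overlapped, but this contrast chose both genes. The subtypes richest in ROBO3, EN 2 and EN B, held 2.45%, 5.65%, 3.07% and 2.20% of NO neurons and 20.0%, 15.7%, 22.04% and 14.2% of other neurons.

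With EN 2 and EN B left out of both sides, ROBO3 was 33.7, 15.4, 28.6 and 47.0 CPM against 67.7, 80.5, 57.6 and 79.4 CPM, so that the difference in CPM was smaller in every sample, although in control replicate 2 the ratio of the groups was not. DRAXIN was hardly touched by this, with 113, 143, 106 and 91.5 CPM against 152, 206, 171 and 174 CPM. Within EN 1, NO neurons had less of both genes, with ROBO3 at 51.8 against 122 CPM and at 6.56 against 148 CPM, and DRAXIN at 104 against 189 CPM and at 162 against 249.6 CPM in control replicates 1 and 2. EN A showed the same, with ROBO3 at 47.3 against 107 CPM and at 3.41 against 231 CPM, and DRAXIN at 108 against 205 CPM and at 102 against 193 CPM in PP121 replicates 1 and 2. The values 6.56 and 3.41 CPM rest on few ROBO3 UMIs. All NO neurons together held 1969590 UMIs in control replicate 2 and 861470 in PP121 replicate 2. ROBO3 was not lower in NO neurons of every subtype. In EN H it was 14.2 against 8.66 CPM and 89.3 against 6.46 CPM, higher in NO neurons, from 8 and 20 UMIs, and in EN E it was 25.8 against 7.26 CPM and 77.9 against 11.7 CPM.

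**Figure D3:**
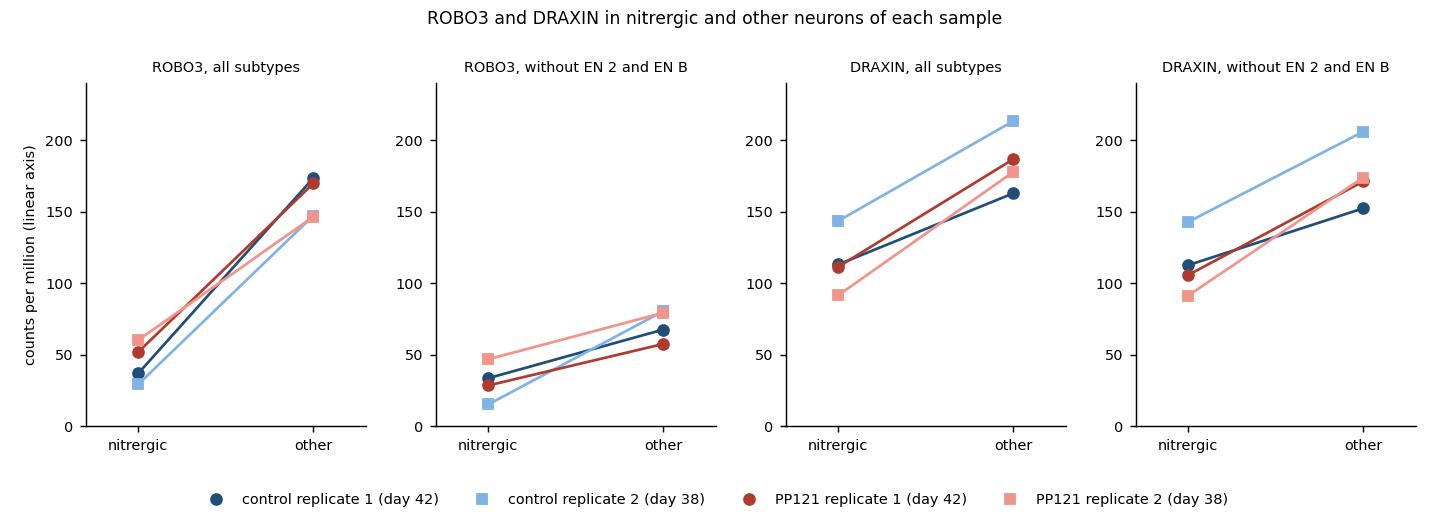
ROBO3 and DRAXIN in CPM (linear axis from 0) in NO and other neurons, with a line joining both values of a sample, for all subtypes and without EN 2 and EN B. Every line rises towards the other neurons, and for ROBO3 the rise in CPM is smaller without these subtypes, where the other neurons lie between 57.6 and 80.5.

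The remaining genes were mixed in direction. ROBO2 was higher in NO neurons of all 4 samples, with 892, 814, 1240.2 and 1645 CPM against 693, 577, 759 and 1212 CPM, and so was SLIT2, with 227, 183, 330.3 and 420.2 CPM against 195, 154, 151 and 228 CPM. DCC was lower in all 4, with 1027, 1365, 1781 and 1277 CPM against 1377, 1966, 2440.2 and 3848 CPM, and so was NTN1, with 30.7, 42.6, 23.3 and 25.5 CPM against 34.3, 43.5, 29.5 and 31.7 CPM. SLIT1 was lower in 3 samples and higher in control replicate 2, where it was 238 against 196.2 CPM, and SLIT3 was higher in 3 and nearly equal in PP121 replicate 1, at 20.4 against 20.5 CPM. ROBO1 was higher in 3 samples and lower in control replicate 2, where it was 529.6 against 679 CPM. ROBO4 was lower in 3 and higher in PP121 replicate 2, where it was 25.5 against 18.9 CPM. All of these come from the contrast that chose the genes and were not tested.

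Transmitter groups were therefore drawn again from raw UMIs of transmitter genes, among neurons without the NO identity, and compared within samples with edgeR's quasi-likelihood test. Neurons with a UMI of SLC17A6, the vesicular glutamate transporter VGLUT2, numbered 99, 144, 189 and 172. They had less ROBO3, 61.9, 63.7, 55.6 and 67.6 CPM against 181, 165, 191 and 174 CPM in neurons without one, and less ROBO4, 7.10, 10.9, 13.1 and 7.76 CPM against 26.5, 26.3, 40.5 and 22.7 CPM. DCC was 889, 1135, 1774 and 2077 CPM against 1411, 2141, 2564 and 4453 CPM. ROBO2 was higher, 852, 907, 1285 and 1626 CPM against 682, 507, 661 and 1071 CPM. The direction was the same in all 4 samples for each of these genes.

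Of the 10 genes, 4 passed the test in this comparison, beside 7.03% of the 16132 features tested (4.75% higher and 2.28% lower). The median over the 10 was −0.24, against 0.00 over all features. ROBO3 fell by 1.47 on the log2 scale (SE 0.10, adjusted p = 5.2e-07), ROBO4 by 1.51 (SE 0.18, adjusted p = 8.3e-05) and DCC by 0.76 (SE 0.09, adjusted p = 8e-05), and ROBO2 rose by 0.73 (SE 0.10, adjusted p = 0.00026). EN 2 and EN B held 1.01%, 3.47%, 3.17% and 4.65% of neurons with SLC17A6 and 21.1%, 17.8%, 24.7% and 16.7% of those without. Without these subtypes ROBO3 was 44.7, 29.8, 47.9 and 40.7 CPM against 69.7, 93.2, 59.9 and 94.7 CPM, the same direction with a smaller difference in CPM, though not a smaller ratio in control replicate 2, and ROBO4 was 5.19, 3.39, 8.66 and 5.24 CPM against 6.996, 7.29, 7.94 and 8.49 CPM, with PP121 replicate 1 now the other way. The median depth of neurons with SLC17A6 was 8011 to 9712 UMIs, against 6592 to 7521 UMIs without it. When neurons were split after thinning to equal depth, 5 genes passed, beside 3.51% of features.

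The deposited glutamatergic identity, which the authors based on imputed values, gave the opposite direction for ROBO3, but over a different set of neurons. Groups by deposited identity were drawn from all enteric neurons, so they held NO neurons, which the UMI groups left out. By the glutamatergic identity ROBO3 was 257, 166, 208 and 173 CPM against 107, 85.7, 104 and 48.8 CPM in neurons without the identity. An SLC17A6 UMI was present in 10.7%, 18.9%, 22.3% and 24.3% of neurons with the identity and in 5.78%, 13.7%, 9.88% and 19.4% of those without. The deposited GABAergic identity gave 93.4, 126, 182 and 303 CPM against 198, 126, 113 and 102 CPM, higher in both PP121 samples and lower in control replicate 1. Which of these definitions is nearer to the neurons' transmitter was not tested.

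Neurons with a UMI of GAD1 or GAD2, the enzymes that make GABA, numbered 939, 312, 602 and 153. Their median depth was 7900 to 9281 UMIs, against 6028 to 7394 UMIs in neurons without one. They had more ROBO3, 184, 198, 225 and 357 CPM against 159.7, 118, 126 and 88.4 CPM, and more ROBO4, 28.4, 28.8, 41.3 and 42.4 CPM against 20.9, 20.6, 32.03 and 12.4 CPM. SLIT3 was lower, 7.64, 17.3, 12.6 and 24.8 CPM against 19.5, 64.4, 26.8 and 83.2 CPM. SLIT1 was 189, 246, 273 and 386 CPM against 171, 167, 230.2 and 249 CPM, and DCC 1234, 1569, 2272 and 3194 CPM against 1576, 2199, 2576 and 4028 CPM. Each difference held in all 4 samples.

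Here 5 of the 10 genes passed, beside 5.83% of 17733 features (3.55% higher and 2.28% lower). ROBO3 rose by 0.97 (SE 0.20, adjusted p = 0.011), ROBO4 by 0.71 (SE 0.17, adjusted p = 0.033) and SLIT1 by 0.44 (SE 0.08, adjusted p = 0.0055), while SLIT3 fell by 1.47 (SE 0.14, adjusted p = 6e-05) and DCC by 0.28 (SE 0.07, adjusted p = 0.024). The calls for ROBO3 and ROBO4 were lost when neurons were split after thinning (0.56, adjusted p = 0.057, and 0.46, adjusted p = 0.23), and without EN 2 and EN B control replicate 1 had ROBO3 at 67.4 against 68.1 CPM. ROBO4 without these subtypes was 7.42, 8.92, 7.60 and 12.6 CPM against 6.07, 5.30, 8.40 and 6.54 CPM, with PP121 replicate 1 now the other way. Leaving out control replicate 2 left 1 gene called and leaving out PP121 replicate 1 left 3. Shares of all features are not given for these settings, so the counts cannot be read as particular to these genes.

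Cholinergic neurons, defined by a UMI of CHAT, SLC18A3 or SLC5A7, numbered 257, 116, 174 and 42 and differed in DCC and ROBO1. Their median depth was 8638.5 to 10220 UMIs, against 6550 to 7661 UMIs in neurons without one. DCC was 997, 1299, 1185 and 2314 CPM against 1456, 2079.8, 2639 and 3948 CPM, and ROBO1 458, 604, 408 and 557 CPM against 653, 692, 575 and 631 CPM, lower in all 4 samples for both. Of the 10 genes 2 passed, beside 2.99% of 17107 features (0.836% lower), and DCC fell by 0.74 (SE 0.08, adjusted p = 6.2e-05) and ROBO1 by 0.31 (SE 0.08, adjusted p = 0.046). The call for ROBO1 was lost with each of control replicate 1, control replicate 2 and PP121 replicate 1 left out. ROBO3 stood at 194, 132, 141 and 161 CPM against 169, 149.9, 174 and 146 CPM, with samples on both sides. SLIT1 stood at 227, 219, 270.4 and 320 CPM against 172, 192, 246 and 276 CPM and DRAXIN at 158, 158, 181 and 145 CPM against 164, 223, 188 and 180.1 CPM, and neither passed.

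**Figure D4:**
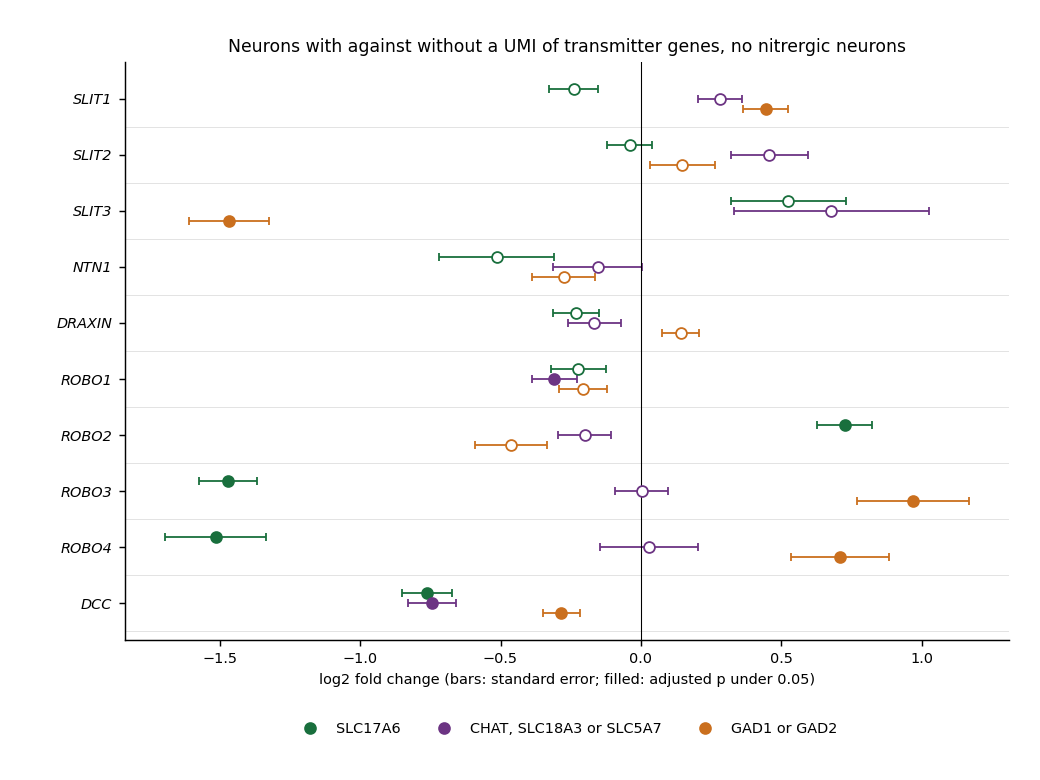
Log2 fold change (x axis) of each gene between neurons with and without a UMI of SLC17A6, of the cholinergic genes or of GAD1 or GAD2, NO neurons left out; bars are standard errors and filled symbols have an adjusted p under 0.05. ROBO3 and ROBO4 lie on the lower side for SLC17A6 (−1.47 and −1.51) and on the higher side for GAD1 or GAD2 (0.97 and 0.71), and DCC lies on the lower side in all 3 comparisons.

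Among 39 further genes of netrin, SLIT and ROBO signalling, neurons with SLC17A6 had 8 higher and 3 lower of 37 tested, beside 7.03% of all features called. The leading genes were the netrin receptor DSCAM (1.86, adjusted p = 1.7e-08), the ROBO3 ligand family members NELL1 (1.80, adjusted p = 1.2e-07) and NELL2 (1.00, adjusted p = 0.00035), the netrin receptor UNC5D (0.97, adjusted p = 2e-05) and NTNG1 (1.65, adjusted p = 7.9e-05). Neurons with GAD1 or GAD2 had 2 higher and 5 lower of 37, beside 5.83% of features. MYO10, which carries DCC to the tips of filopodia (−0.50, adjusted p = 0.0067), NELL2 (−0.94, adjusted p = 0.0082), NTNG1 (−1.06, adjusted p = 0.021) and UNC5D (−0.62, adjusted p = 0.027) were lower and RGMB (0.52, adjusted p = 0.011) was higher. Cholinergic neurons had 2 higher, UNC5C (1.02, adjusted p = 1.5e-05) and UNC5D (0.68, adjusted p = 0.0093), and 1 lower, DSCAM (−0.46, adjusted p = 0.038), of 37, beside 2.99% of features.

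PP121 and control samples were compared to ask whether these genes moved with the treatment. In enteric neurons, DCC was 1302 and 1839.8 CPM in control and 2201 and 3446 CPM in PP121 samples. ROBO2 was 730.4 and 614 CPM against 859 and 1222 CPM, and SLIT1 180.1 and 202 CPM against 235 and 278 CPM. For these 3 genes both PP121 samples lay above both control samples. The share of all features that lay apart in this way was not counted, here or in the sets below. SLIT3 was 13.9 and 51.3 CPM against 19.7 and 73.1 CPM, higher with PP121 in each replicate but overlapping between the groups. ROBO3 was 148 and 125 CPM against 139 and 134 CPM, and DRAXIN 154 and 202 CPM against 171 and 169.8 CPM, both overlapping.

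Without a block, edgeR's quasi-likelihood test called none of the 10 genes (0%, or 0 of 21243 features, with 2549 features and 3 of these genes at an unadjusted p under 0.05), and DESeq2 called 87 features (0.41%) and none of these genes, of which 3 were under 0.05 before adjustment. With the replicate as a block, which pairs the samples of a dated day, 4 of the 10 were called, all higher with PP121, beside 14.8% of the features called, 7.97% higher and 6.86% lower. DCC rose by 0.87 (SE 0.08, adjusted p = 2.8e-08), ROBO2 by 0.65 (SE 0.11, adjusted p = 0.00019), SLIT3 by 0.55 (SE 0.12, adjusted p = 0.0025) and SLIT1 by 0.46 (SE 0.09, adjusted p = 0.00064). The median over the 10 genes was 0.28, against −0.01 over all features. This fit leaves 1 residual degree of freedom per gene, DESeq2 with the same block called DCC and SLIT1 beside 2.98% of features, the blocked test on joint clusters called the same 4 genes beside 4.97%, and an exact permutation test of 2 against 2 samples cannot go below p = 0.333.

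ROBO3 (0.04, SE 0.09, adjusted p = 0.83) and DRAXIN (−0.01, SE 0.10, adjusted p = 0.98) did not pass with the block, nor did NTN1 (−0.27, SE 0.12, adjusted p = 0.15), which stood at 34.1 and 43.8 CPM against 29.9 and 32.3 CPM. In neuron clusters made over all 4 samples, DCC was higher with PP121 in 7 of 7 clusters of replicate 1 and in 3 of 3 of replicate 2, SLIT1 in 6 of 7 and 3 of 3, and ROBO2 in 4 of 7 and 3 of 3. SLIT3, also called with the block, was higher in 5 of 7 and only 1 of 3, and in 0 of 3 clusters in both replicates. NTN1 was higher in 1 of 7 and 0 of 3. The hindbrain or spinal interneuron markers summed to 637 and 394 CPM in control against 570 and 306 CPM in PP121 neurons, lower with PP121 in each replicate but overlapping, and their part in the differences was not tested.

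In progenitor 1, DCC was 185 and 209 CPM in control and 257 and 562 CPM in PP121 samples, SLIT2 104 and 70.2 CPM against 123 and 165 CPM, and SLIT3 6.57 and 11.5 CPM against 13.8 and 32.8 CPM, each without overlap. Without the block none of the 9 genes tested was called (0% of 16083 features, with 621 features and 3 of these genes at an unadjusted p under 0.05, and 1 feature, 0.00622%, by DESeq2). With the block 3 were called, all higher, beside 3.69% of the features and 2.9% called higher. SLIT3 rose by 1.29 (SE 0.29, adjusted p = 0.0011), DCC by 0.93 (SE 0.15, adjusted p = 8.2e-07) and SLIT2 by 0.70 (SE 0.18, adjusted p = 0.0039). DESeq2 with the block called none of them (0.454% of features, with 4 of these genes at an unadjusted p under 0.05), and neither did the blocked test on progenitor 1 of the joint clusters (0.745% of features), where SLIT2 was at −0.03.

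In progenitor 2, SLIT1 was 113 and 113 CPM in control and 187 and 189 CPM in PP121 samples. SLIT2 was 224 and 158 CPM against 217 and 491 CPM and SLIT3 9.62 and 15.5 CPM against 14.4 and 45.2 CPM, both overlapping between the groups. DCC was 283 and 337 CPM against 357 and 678 CPM, without overlap, and NTN1 66.7 and 115 CPM against 52.5 and 74.0 CPM, lower with PP121 in each replicate. No gene was called without the block (0% of 18885 features, with 1774 features and 4 of these genes at an unadjusted p under 0.05), whereas DESeq2 called 96 features (0.508%) with SLIT1 among them.

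With the block 5 of the 10 genes were called in progenitor 2, beside 6.71% of the features, 4.38% higher and 2.32% lower. SLIT3 rose by 1.12 (SE 0.20, adjusted p = 4.1e-05), SLIT2 by 0.81 (SE 0.16, adjusted p = 0.00019), SLIT1 by 0.76 (SE 0.12, adjusted p = 3e-06) and DCC by 0.70 (SE 0.12, adjusted p = 1.4e-05), and NTN1 fell by 0.47 (SE 0.13, adjusted p = 0.017). The SLIT2 difference came from replicate 2, since in replicate 1 its log2 ratio was −0.05 against 1.63 in replicate 2. With the block, joint clusters left DCC and SLIT1 (1.53% of features called) and DESeq2 left SLIT1 (1.16%).

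In NO neurons, ROBO2 was 892 and 814 CPM in control and 1240.2 and 1645 CPM in PP121 samples, SLIT2 227 and 183 CPM against 330.3 and 420.2 CPM, and ROBO1 754 and 529.6 CPM against 819 and 1016 CPM. ROBO3 was 37.1 and 29.4 CPM against 52.1 and 60.4 CPM, and these 4 genes did not overlap between the groups, while DCC did (1027 and 1365 CPM against 1781 and 1277 CPM), with no such count over all features. Without the block none was called (0% of 15239 features, with 2131 features and 5 of these genes at an unadjusted p under 0.05), and DESeq2 called 128 features (0.84%), ROBO2 and SLIT2 among them. With the block 5 were called, all higher, beside 10.5% of the features, 6.79% higher and 3.67% lower.

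SLIT2 rose by 0.97 (SE 0.13, adjusted p = 3.9e-11), ROBO2 by 0.86 (SE 0.12, adjusted p = 2.2e-11), ROBO3 by 0.82 (SE 0.21, adjusted p = 0.0028), ROBO1 by 0.64 (SE 0.12, adjusted p = 6.1e-06) and DCC by 0.48 (SE 0.11, adjusted p = 0.00083). The blocked value of ROBO3 moved to 0.37 (adjusted p = 0.43) without the nuclei above the 95th percentile of UMIs in each sample, and the call was lost, as was that of DCC (0.42, adjusted p = 0.20). PP121 replicate 2 held only 91 NO neurons. Fits with a sample left out had no block, so how the blocked calls depend on this sample was not tested. With the block, DESeq2 (1.05% of features) and joint clusters (4.11%) left the calls of ROBO2 and SLIT2. DRAXIN stood at 113 and 144 CPM against 112 and 91.7 CPM and did not pass.

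**Figure D5:**
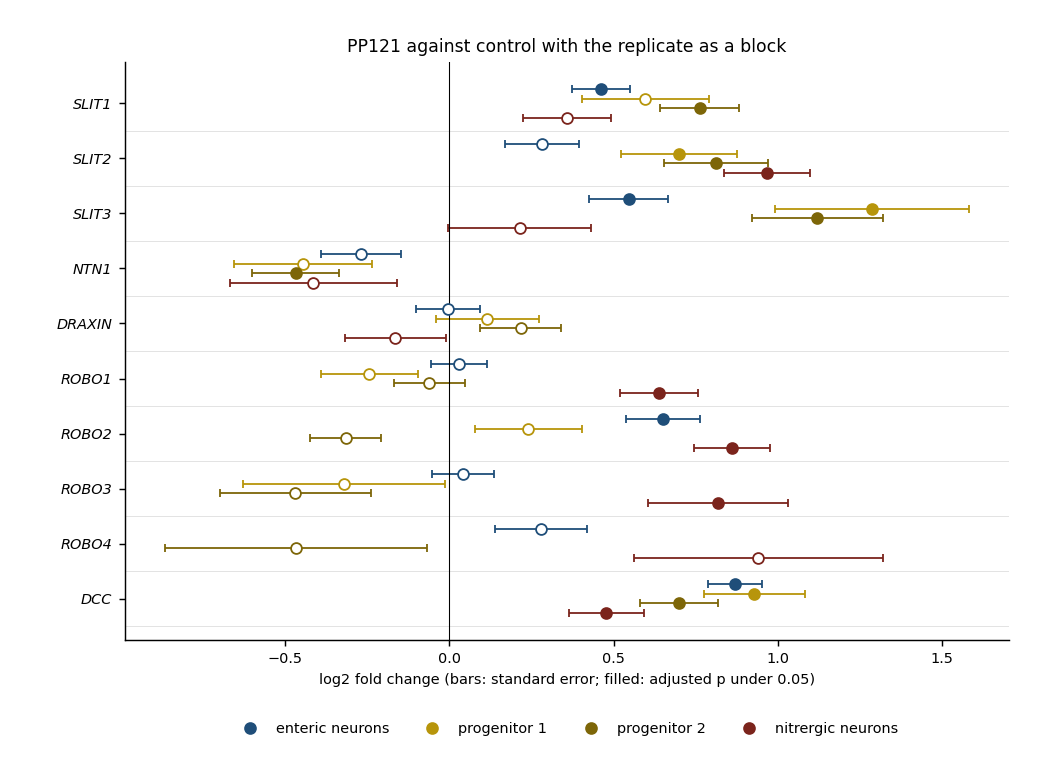
Log2 fold change (x axis) of each gene between PP121 and control samples with the replicate as a block, in enteric neurons, progenitor 1, progenitor 2 and NO neurons; bars are standard errors and filled symbols have an adjusted p under 0.05. DCC lies on the higher side in all 4 sets (0.48 to 0.93) and NTN1 on the lower side in all 4, with a call in progenitor 2 (−0.47).

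Of the 39 further genes, edgeR without the block called none with PP121 in any of the 4 sets, while DESeq2 without it called 1 in enteric neurons, 0 in progenitor 1, 1 in progenitor 2 and 2 in NO neurons, all higher. With the block, 11 were higher and 3 lower of 38 tested in enteric neurons, beside the 14.8% of features called there. DESeq2 with the block left 3 higher and 1 lower, and joint clusters left 5 higher and 2 lower. The 14 included 3 of 4 netrin ligands and 3 of 6 netrin and draxin receptors on the higher side and 2 of 4 ROBO trafficking genes on the lower. UNC5C, a netrin receptor that mediates repulsion, rose by 0.84 (adjusted p = 2e-07), NTNG1 by 0.75 (adjusted p = 1.5e-05), NELL2 by 0.86 (adjusted p = 4.8e-05) and NELL1 by 0.63 (adjusted p = 7.1e-05), and NDFIP1, an adaptor that directs ROBO1 to degradation, fell by 0.53 (adjusted p = 0.00016). UNC5C was higher in each of the other sets too, by 0.99 (adjusted p = 9.2e-05) in progenitor 1, 1.22 (adjusted p = 3.9e-13) in progenitor 2 and 1.03 (adjusted p = 1.4e-12) in NO neurons, but its call in progenitor 1 was lost with joint clusters (adjusted p = 0.059). The 4 comparisons share their samples, and those of neurons share nuclei. The median over the 38 genes in enteric neurons was 0.18.

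Other counts with the block were 3 higher and 1 lower of 34 in progenitor 1, 3 higher and 1 lower of 37 in progenitor 2 and 8 higher and 0 lower of 36 in NO neurons, beside 3.69%, 6.71% and 10.5% of features. Under the block, joint clusters left 0, 2 and 6 genes, all higher, and DESeq2 left 1, 1 and 3. DSCAM (1.15, adjusted p = 0.00014), NELL2 (1.07, adjusted p = 0.0017) and MYO10 (−0.67, adjusted p = 0.006) were called in progenitor 1. NTNG1 (0.64, adjusted p = 0.00029), DOCK1 (0.52, adjusted p = 0.0025) and UNC5D (−0.66, adjusted p = 0.00081) were called in progenitor 2. In NO neurons NTNG1 (1.21, adjusted p = 8.6e-17), NELL2 (1.26, adjusted p = 1.2e-10), NELL1 (0.78, adjusted p = 2.3e-05) and neogenin (NEO1, 0.60, adjusted p = 0.00042) led.

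Whether the PP121 difference was unlike in neurons and progenitors was tested with the interaction term of a fit over both, with the sample as a block. None of the 10 genes passed (0% of 21787 features, with 2123 features and 2 of these genes at an unadjusted p under 0.05). ROBO2 came nearest, at 0.99 (SE 0.23, adjusted p = 0.2), and DESeq2 called it (adjusted p = 0.017) among 52 features (0.239%). Its level with PP121 was higher in neurons of both replicates and lower in progenitor 2 of both, at 1038 and 863 CPM in control against 931 and 595 CPM. In progenitor 1 its log2 ratio of PP121 to control was 0.08 and 0.45 (replicates 1 and 2). The fit summed both progenitor classes. Progenitor 1 gave 586 of 1741 and 608 of 1291 summed nuclei in control, and 1197 of 2304 and 501 of 1356 in PP121 samples. The part of this mix in the ROBO2 value was not tested.

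Replicates 1 and 2, which differ in dated day and in differentiation, were compared in the same way. SLIT3 in neurons was 13.9 and 19.7 CPM in the replicate 1 samples and 51.3 and 73.1 CPM in replicate 2, with no overlap, and DCC was 1302 and 2201 CPM against 1839.8 and 3446 CPM. With treatment as a term, 2 of the 10 genes were called in neurons, both lower in replicate 1, beside 9.49% of the features, 3.68% higher and 5.81% lower, and DESeq2 called the same 2 (2.13% of features). SLIT3 fell by 1.94 (SE 0.12, adjusted p = 1.9e-11) and DCC by 0.63 (SE 0.08, adjusted p = 4.9e-06).

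In progenitor 1, 6 genes were lower in replicate 1, beside 14.6% of the features, 5.66% higher and 8.95% lower, of which DESeq2 called DRAXIN and NTN1 (4.05% of features). SLIT3 fell by 1.23 (SE 0.29, adjusted p = 0.00061), NTN1 by 0.90 (SE 0.21, adjusted p = 0.00057), DCC by 0.82 (SE 0.15, adjusted p = 7.6e-06), DRAXIN by 0.72 (SE 0.16, adjusted p = 0.00017), SLIT1 by 0.66 (SE 0.19, adjusted p = 0.0084) and ROBO1 by 0.47 (SE 0.15, adjusted p = 0.017). DRAXIN stood at 175 and 208 CPM in the replicate 1 samples against 279 and 285 CPM, and NTN1 at 42.7 and 28.3 CPM against 63.7 and 53.2 CPM, both without overlap. In progenitor 2, 4 were called, beside 4.81% of the features (2.26% higher and 2.55% lower), with SLIT3 (−1.29, SE 0.20, adjusted p = 2.2e-06), NTN1 (−0.70, SE 0.13, adjusted p = 0.00013) and DCC (−0.65, SE 0.12, adjusted p = 7.2e-05) lower and ROBO2 (0.40, SE 0.11, adjusted p = 0.014) higher in replicate 1. ROBO3 and SLIT2 were called in none of the 3 classes, and ROBO4 was not called in neurons or progenitor 2. In progenitor 1 only 9 genes were tested, and ROBO4, at 0.25 to 3.28 CPM, did not pass the filter on low counts. Mesenchymal nuclei numbered 40 and 33 in the replicate 1 samples and 408 and 422 in replicate 2, and the 6 mesenchymal markers in neurons summed to 10.2 and 8.1 CPM in replicate 1 against 33.0 and 30.8 CPM in replicate 2. The part of that in the SLIT3 difference was not tested.

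Of the 39 further genes, 0 were higher and 4 lower in replicate 1 in neurons, with NELL2 (−0.999, adjusted p = 7.1e-06), NTNG1 (−0.75, adjusted p = 1.6e-05), NELL1 (−0.54, adjusted p = 0.00042) and FYN, a kinase that acts downstream of DCC (−0.32, adjusted p = 0.016). That count, 4 of 38, is near the share of all features called, 9.49%, and DESeq2 left 2. In progenitor 1, 2 were higher and 12 lower of 34 (14.6% of features were called, and DESeq2 left 1 and 6), among them 4 of 8 ROBO effectors and 4 of 9 DCC effectors. The leading genes were SRGAP3, a GTPase-activating protein downstream of ROBO (−1.09, adjusted p = 1.6e-11), NELL2 (−1.64, adjusted p = 1.9e-08), DSCAM (1.33, adjusted p = 1.7e-06), NEO1 (−0.77, adjusted p = 8.4e-05) and FYN (−0.66, adjusted p = 0.00031). In progenitor 2, 1 was higher and 3 lower of 37 (4.81% of features), namely DSCAM (0.57, adjusted p = 0.025), NELL2 (−1.21, adjusted p = 1.2e-10), UNC5C (−0.54, adjusted p = 0.00064) and SRGAP3 (−0.50, adjusted p = 0.00075). NELL2, whose product binds ROBO3, was thus lower in replicate 1 in all 3 classes.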

How the data were processed

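Single-nucleus RNA was measured in 4 samples, 2 control and 2 PP121. The deposited matrices hold whole-number UMI counts per gene and nucleus. Per the labels and the study's methods, the authors pseudoaligned reads with kallisto and bustools and annotated nuclei in Seurat after sorting pooled samples by hashtag, and the submitters' processing notes name Cell Ranger, Seurat 4.0.4 and GRCh38. Whether intronic reads or strand were used in counting is not given in the sources used here. The annotation deposited by the authors also holds percent values (mitochondrial and ribosomal UMIs of a nucleus) and cell cycle scores, which were not used; its class, subtype, transmitter, day and treatment entries were. Nuclei it marks as filtered were left out of every comparison.

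Groups were taken from the labels. The members and all lists were chosen with earlier results of these data known. Counts were summed per sample and class and tested with edgeR 4.0.16 (glmQLFit and glmQLFTest, two-sided, TMM, filterByExpr, R 4.3.3), with Benjamini-Hochberg adjustment over all features tested and a threshold of 0.05. DESeq2 1.42.0 was an alternative, as were no filter, at least 10 counts in every sum, joint clusters of all samples (scanpy 1.11.5, 2000 variable genes), each sample left out, and leaving out nuclei above the 95th percentile of UMIs. No doublet caller was run. Levels are CPM of summed UMIs. Shares of nuclei were taken after thinning to 2000 UMIs, with exact Clopper-Pearson intervals at 95%. These intervals and the limit of 3 counts for a 0 cover counting error only. The replicate number pairs samples through the days in the annotation, and deviations of samples with the same number correlated at 0.608 in neurons, 0.579 in progenitor 1, 0.452 in progenitor 2 and 0.242 in NO neurons. The replicates are labelled as differentiations of 1 line.

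The rule for named genes was all 10 members in every comparison (those not given a value in a test did not pass it, or, for 1 member in progenitor 1, the filter), up to 5 of 39 related genes by smallest adjusted p under 0.05, and for each member the 3 genes most alike by Pearson correlation of log2(CPM + 1) over subtype profiles of at least 50 nuclei and a mean of at least 10 CPM. SHH and FOXA2 were chosen after their values were seen. Alternatives without EN 2 and EN B, within joint neuron clusters and with the block but without nuclei of most UMIs were chosen after seeing the data. Scripts were tested on simulated data. Annotation came from GENCODE 29 and promoters from RefSeq. The levels of 1 marker gene are not reported here.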

Additional observations from a re-analysis of the deposited data

Results flagged for a closer look

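ROBO2 moved in opposite directions with PP121 in neurons and in progenitor 2 of both replicates. Its log2 ratio was 0.23 and 0.99 in neurons and −0.16 and −0.54 in progenitor 2 (replicates 1 and 2), a difference of 0.96 between the means. In progenitor 1 it was 0.08 and 0.45, a difference of 0.61 from progenitor 2. ROBO4 was 0.41 and 0.02 in neurons and −0.46 and −0.56 in progenitor 2, a difference of 0.73. These pairwise differences were not tested. The fit of neurons against both progenitor classes together gave ROBO2 an adjusted p of 0.2.

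The nuclei marked as low quality in the annotation (4248, 1816, 2400 and 2030) were in no comparison. In them 6 genes were higher in both PP121 samples than in both control samples. The share of all features that did so was not counted, and these nuclei have no annotated class. The ratio of the group means was 1.32 for ROBO1 (533 and 632 against 715 and 821 CPM), 1.44 for ROBO2 (608 and 474 against 691 and 865 CPM) and 1.59 for SLIT1 (114 and 117 against 175 and 192 CPM). It was 1.89 for SLIT2 (187 and 161 against 309 and 348 CPM), 2.40 for SLIT3 (16.5 and 25.4 against 30.98 and 69.7 CPM) and 1.81 for DCC (708 and 967 against 1363 and 1675 CPM).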

How the results depend on the processing

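Counts of the 10 genes called under each alternative follow. Shares of all features are given for some of these settings only, and a count with no share cannot be read as particular to these genes. PP121 in neurons gave 0 without the replicate block and 4 with the replicate block, 2 with block and DESeq2, 4 with block and joint clusters and 4 with block and no nuclei of most UMIs. Progenitor 1 gave 0, and 3 with the block, also without those nuclei. Progenitor 2 gave 0, and 1 with DESeq2, 4 with no filter, 5 with the block, 1 with block and DESeq2, 2 with block and joint clusters and 3 with block and no nuclei of most UMIs. NO neurons gave 0, and 2 with DESeq2, 5 with no filter, 5 with the block, 2, 2 and 4 with the block under DESeq2, joint clusters and no nuclei of most UMIs. For replicate 1 against 2, leaving treatment out, so no replicate block in the pairing sense, gave 0 in all 3 classes, DESeq2 gave 2 in progenitor 1 and 1 in progenitor 2, and joint clusters 1 in progenitor 2. The interaction gave 1 with DESeq2 and 1 with no filter. SLC17A6 gave 9 with no filter, the cholinergic genes 1 with DESeq2, 5 with no filter and 1 without the nuclei of most UMIs, and GAD1 or GAD2 3 when split after thinning.

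Leaving out 1 sample gave 0 to 3 genes in neurons (3 without PP121 replicate 1), 0 to 2 in progenitor 1, 0 to 4 in progenitor 2, 0 to 3 in NO neurons, 0 to 1 for the interaction, 4 to 6 for SLC17A6, 1 to 3 for the cholinergic genes and 1 to 6 for GAD1 or GAD2. A replicate comparison with 1 sample left out has no residual degrees of freedom and was not tested. The PP121 fits with 1 sample left out had no replicate block, so they do not show how the blocked calls depend on a sample.

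The log2 values of PP121 in neurons that turned sign were ROBO3 at −0.0024 (joint clusters), −0.0027 (block and joint clusters) and −0.0437 to 0.14 with samples left out, DRAXIN at 0.0019 (block and DESeq2), 0.0109 (block and joint clusters), 0.0169 (block, no nuclei of most UMIs) and −0.24 to 0.23 with samples left out, and SLIT3 at −0.70 to 1.81 with samples left out (−0.14 without control replicate 1). Fits with a sample left out had no block, so treatment and replicate were not balanced in them. Within replicates 1 and 2, SLIT3 in neurons was at 0.50 and 0.51 for PP121 over control. For replicate 1 over 2 it was at −1.88 in control and −1.89 in PP121 samples. SLIT2 in progenitor 1 was −0.0657 with joint clusters and −0.0271 with block and joint clusters. The causes were not tested.

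Features called moved with the setting too. In neurons 0 became 87 with DESeq2, 69 with no filter and 3152 with the block, in progenitor 1 593 with the block, in progenitor 2 96, 768 and 1267, and in NO neurons 128, 752 and 1594. For replicate 1 against 2, DESeq2 gave 453, 652 and 150 in place of 2015, 2350 and 908. DESeq2 gave 747 of 1134 for SLC17A6 and 641 of 1033 for GAD1 or GAD2, and the split after thinning 563, 210 and 518 in the 3 transmitter comparisons.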
